A study of Arabidopsis thaliana with 17 samples.

Results

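MYB transcription factors of Arabidopsis thaliana were looked for among the probe sets of the arrays that compared plants lacking the selective autophagy receptor NBR1 with wild-type plants. A probe set was taken as a MYB gene where the platform's annotation gave it a single gene symbol starting with MYB or AtMYB and a number, or where the study's own lists of genes that changed in the NBR1 overexpressing line OX7.5 gave it such a name. The clock-related gene RVE2 was left out. The rule found 2 probe sets of 18107 that carry a name and of 28583 in the table, namely MYB10 (AT3G12820, probe set 13448584) and MYB305 (AT3G24310, probe set 13453217). Both names came from the OX7.5 lists, MYB10 from the root list and MYB305 from the shoot list, and 0 from the platform's annotation. The RefSeq gene table holds 121 genes with a MYB symbol, so what follows describes 2 genes and not the family. As both were named because they had changed in another experiment, they are not a random pair of MYB genes.

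MYB proteins bind DNA through repeats of the MYB domain, and in plants the large class with the R2 and R3 repeats controls secondary metabolism, cell fate, cell walls and responses to stress. MYB10 is an R2R3-MYB factor that acts with its close relative MYB72 when iron is scarce, where the pair switch on NAS4, the gene of a nicotianamine synthase that makes a metal chelator. MYB305 carries the alternative name ATMYB71 in the RefSeq table and is listed there as a homologue of a snapdragon MYB protein. NBR1 itself carries ubiquitinated cargo to the autophagosome.

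The study asked what the deletion of NBR1 changed in shoots and in roots. WT was the Col-0 accession. KO1 and KO3 were homozygous NBR1 deletion lines in which CRISPR/Cas9 had made the deletion and from which the transgenic inserts had been removed by crossing. Plants of all 6 groups, defined by line and organ, grew in short days for about 4 weeks in hydroponic boxes with Hoagland medium, with no further treatment, and each RNA sample combined material from at least 3 plants. RNA was hybridised to Affymetrix whole-transcript arrays (Arabidopsis Gene 1.1 ST), and 17 arrays were analysed, 2 for WT roots (replicates 1 and 3) and 3 for each of the other groups. Each deletion was represented by a single line, and the WT arrays served as control for both.

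Signals are RMA log2 values as deposited, so that 1 unit is a doubling. Array medians lay between 1.72 and 1.85 in shoots and between 2.61 and 2.67 in roots, and the files hold no detection calls. KO1 shoots replicate 1 stood apart, with a standard deviation over probe sets of 1.41 (1.94 to 2.07 in the remaining shoot arrays) and a mean correlation with its organ of 0.934 (0.971 to 0.976 in the rest). WT roots replicate 1 had the lowest mean correlation in roots, 0.978 against 0.983 to 0.987. NBR1 (AT4G24690) was lower in KO1 and KO3 by log2 fold changes of -4.55 and -4.51 in shoots and -3.77 and -3.23 in roots. The 4 named chlorophyll-binding protein genes of 24 listed green tissue markers were all higher in shoots, with a median log2 difference of 6.12. Of these, 3 were higher by 1.5-fold or more, while LHCB4.3 was dim in both organs (mean log2 signal 1.37 in shoots and 1.01 in roots). The 3 named of 17 root markers (EXPA7, HKT1 and PHT1;1) were all higher in roots, with a median of -3.59 for shoots minus roots.

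MYB10 had a clearly higher signal in roots than in shoots. In roots its log2 signal was 4.01 and 3.66 in WT, 3.61, 3.30 and 4.26 in KO1, and 3.22, 3.03 and 3.22 in KO3. In shoots it was 1.67, 1.51 and 1.64 in WT, 1.70, 2.27 and 1.41 in KO1, and 1.41, 1.2 and 1.39 in KO3. All 8 root arrays were above the median of their own array, but only 1 of 9 shoot arrays was, KO1 shoots replicate 2.

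MYB305 was dim in every array. Its log2 signal in shoots was 0.87, 1.18 and 0.78 in WT, 1.32, 0.87 and 0.97 in KO1, and 1.24, 0.82 and 1.15 in KO3. In roots it was 1.13 and 0.77 in WT, 1.02, 1.33 and 0.96 in KO1, and 0.78, 1.17 and 1.25 in KO3. All 17 values were below the median of their array, and every group overlapped with every other.

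**Figure D1:**
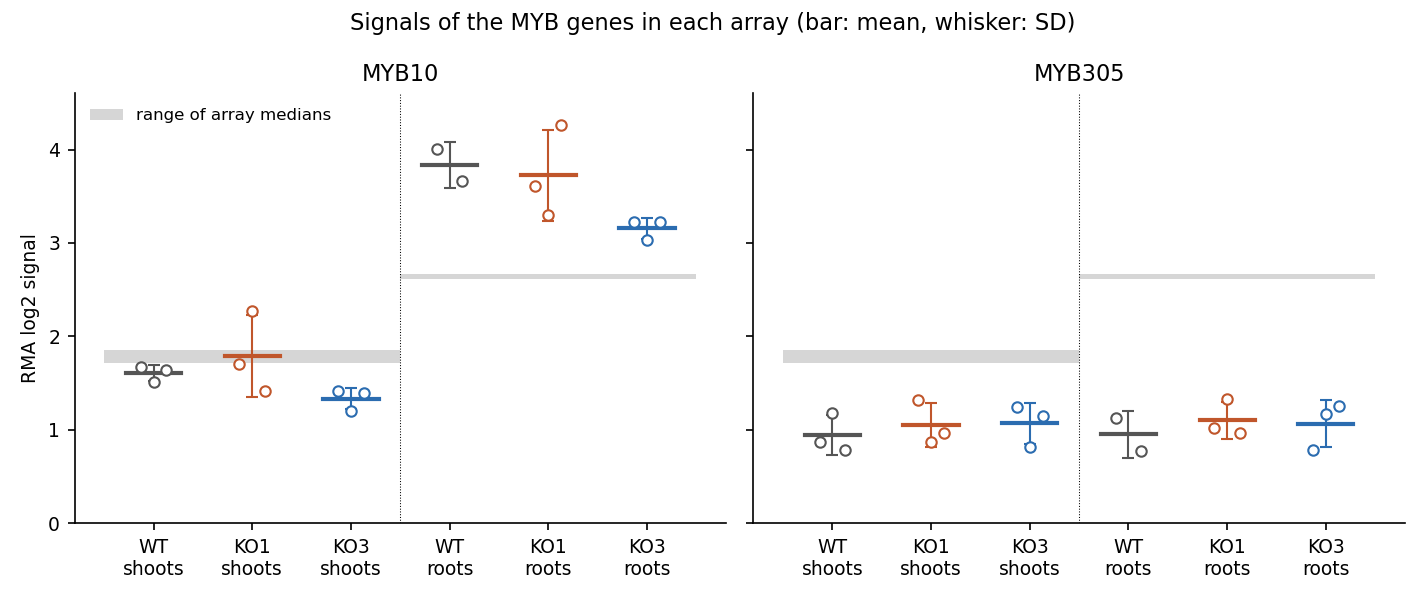
RMA log2 signal of MYB10 (left) and MYB305 (right) in each of the 17 arrays, by line and organ. Circles are arrays, bars are group means, whiskers are SD and grey bands are the range of the array medians of the organ. MYB10 in roots (3.03 to 4.26) lies above its band, and MYB305 (0.77 to 1.33) lies below it in both organs.

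Ordered by group mean, MYB10 was highest in WT roots (3.84 ± 0.25, SD, n = 2), followed by KO1 roots (3.72 ± 0.49, SD, n = 3), KO3 roots (3.16 ± 0.11, SD, n = 3), KO1 shoots (1.79 ± 0.44, SD, n = 3), WT shoots (1.61 ± 0.09, SD, n = 3) and KO3 shoots (1.33 ± 0.12, SD, n = 3). The neighbours WT and KO1 roots overlapped, as did KO1 and WT shoots. KO3 was the lowest line in each organ. The group means of MYB305 lay between 0.94 and 1.1, and all neighbours in their order overlapped.

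For the test of shoots against roots, all arrays were first brought to a common distribution by quantile normalisation, because the sources do not say whether the organs had been normalised together. On that scale MYB10 was 1.31 to 2.82 in the 9 shoot arrays (median 1.64) and 2.48 to 3.57 in the 8 root arrays (median 2.83), so the organs overlapped, whereas the deposited values did not (1.2 to 2.27 against 3.03 to 4.26). The overlap came from KO1 shoots replicate 2. The log2 difference of MYB10, shoots minus roots, was -1.15 (standard error 0.16, 95% confidence interval -1.49 to -0.81), or 2.22-fold lower in shoots, with an adjusted p of 9.46e-06 by limma. An exact permutation test over the arrays gave a two-sided p of 4.11e-04. It regrouped the arrays without regard to line or number. The study split single plants into shoot and root, and the labels do not say whether arrays of both organs share plants. MYB10 passed the adjusted threshold of 0.05, as did 58.2% of all probe sets tested, and 32% did so with a lower signal in shoots. In bulk organs, fewer cells with a transcript and less transcript per cell cannot be told apart.

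MYB305 was not shown to differ between the organs. Its log2 signal on the common scale was 0.81 to 1.41 in shoots (median 0.96) and 0.74 to 1.3 in roots (median 1.02). The difference was 0.02 (standard error 0.11, 95% confidence interval -0.22 to 0.25, adjusted p = 0.897 by limma), so on this scale a difference in signal of more than about 0.25 in either direction lies outside the interval. The signals lay below the array medians, where no detection call shows whether they stand above background. With array medians subtracted in place of quantile normalisation, MYB305 was called higher in shoots by 0.81 (adjusted p = 4.43e-06 by limma), while the median of all probe sets then stood at 0.51.

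In the comparisons of KO lines with WT, neither MYB gene passed the adjusted threshold in any of the 4 comparisons. Over all probe sets that threshold called 0.309% in KO1 shoots, 0.144% in KO3 shoots, 0.127% in KO1 roots and 0.215% in KO3 roots. At an unadjusted p under 0.05, limma took in MYB10 in KO3 roots and 0 of the 2 genes in the other comparisons with WT, against 9.95%, 5.03%, 8.38% and 11.2% of all probe sets in the same order. The median log2 fold change of the MYB genes was 0.15 in KO1 shoots, -0.07 in KO3 shoots, 0.02 in KO1 roots and -0.28 in KO3 roots, beside -0.06, 0.0033, 0.0017 and 0.0017 over all probe sets tested.

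The largest of these differences was that of MYB10 in KO3 roots. All 3 KO3 values (3.03 to 3.22) were below both WT values (3.66 and 4.01), a separation in this direction that 11.8% of all probe sets showed. The log2 fold change was -0.68 (standard error 0.24, 95% confidence interval -1.22 to -0.14), or 1.60-fold lower, with an unadjusted p of 0.0183 and an adjusted p of 0.340 by limma. With limma's p, the study's thresholds of 1.5-fold or more and p under 0.05 before adjustment took in MYB10 here, and 1.84% of all probe sets passed them as lower. The study had fitted another model, and in a linear model without moderation of the variance p was 0.0781, which did not pass. The exact permutation test gave p = 0.2, the smallest that 3 arrays against 2 allow. Without WT roots replicate 1, the array with the lowest correlation, the log2 fold change was -0.50 (unadjusted p = 0.141 by limma) and no longer passed those thresholds.

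**Figure D2:**
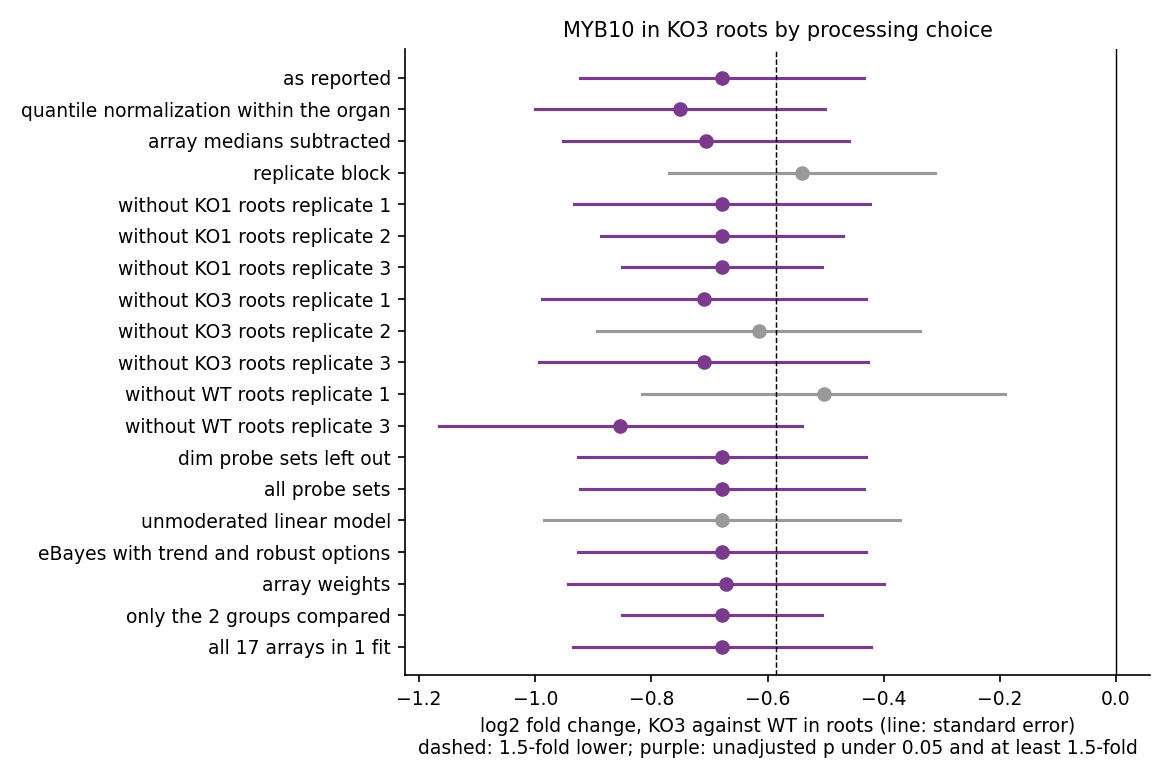
Log2 fold change of MYB10 in KO3 roots against WT (points) with its standard error (lines) as reported and under 18 other processing choices. The values run from -0.85 to -0.50. Purple points pass an unadjusted p under 0.05 and 1.5-fold (14 of the 18 alternatives), grey points do not, and the dashed line marks 1.5-fold lower.

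The remaining differences of MYB10 from WT were smaller in size. In KO3 shoots all 3 values (1.2 to 1.41) were below the 3 WT values (1.51 to 1.67), as for 6.32% of all probe sets in this direction. The log2 fold change there was -0.27 (95% confidence interval -0.74 to 0.19, adjusted p = 0.998 by limma), and the exact permutation test gave p = 0.1, the smallest that 3 arrays against 3 allow. Both groups lay below the median of their arrays, where no detection call shows whether a signal stands above background. In KO1, whose arrays overlapped with WT in both organs, the log2 fold change was 0.19 in shoots (95% confidence interval -0.28 to 0.65, adjusted p = 0.788 by limma) and -0.11 in roots (95% confidence interval -0.65 to 0.43, adjusted p = 0.943 by limma). The sign of both KO1 values rested on single arrays. The shoot value was 0.23 without KO1 shoots replicate 1, -0.052 without replicate 2 and 0.38 without replicate 3, and the root value was 0.1 without KO1 roots replicate 2, 0.063 without WT roots replicate 1 and -0.38 without KO1 roots replicate 3.

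MYB305 overlapped with WT in all comparisons. Its log2 fold changes were 0.11 in KO1 shoots, 0.13 in KO3 shoots, 0.15 in KO1 roots and 0.12 in KO3 roots, each with a standard error of 0.18 or 0.19 and adjusted p-values of 0.872 to 0.998 by limma. The widest of the 95% confidence intervals ran from -0.27 to 0.58.

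**Figure D3:**
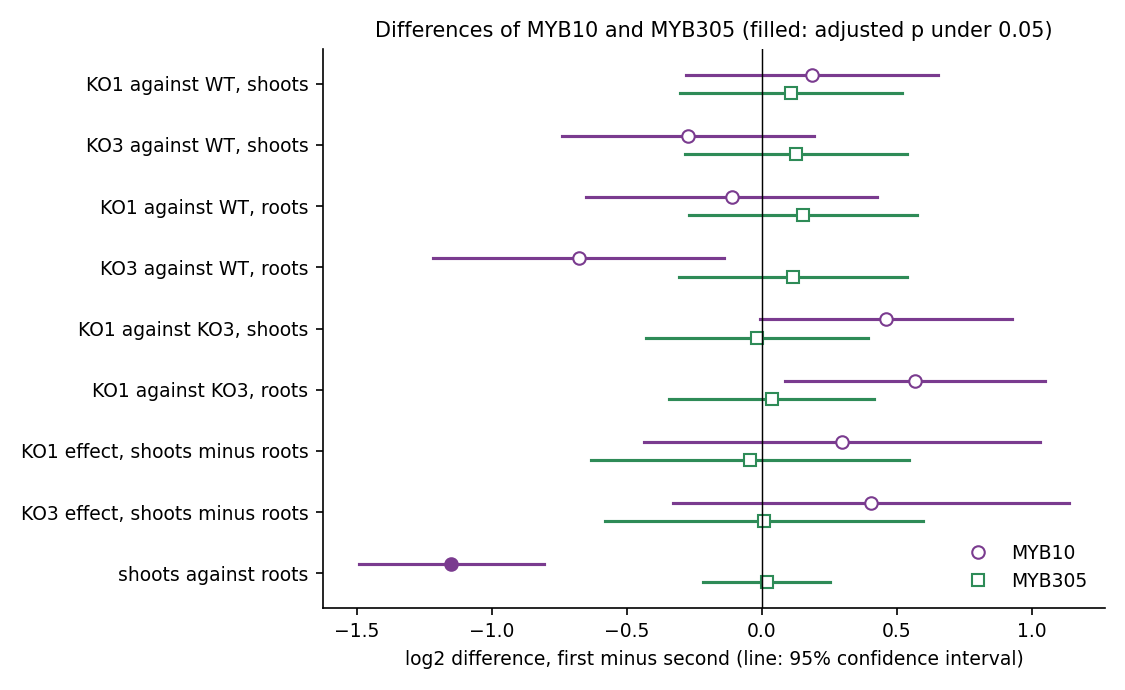
Log2 differences of MYB10 (purple) and MYB305 (green) in the 9 comparisons, first minus second, with 95% confidence intervals. Filled symbols have an adjusted p under 0.05. MYB10 in shoots against roots, at -1.15, is the only filled one.

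The deletion lines were also set directly against each other. In roots, all KO1 values of MYB10 (3.30 to 4.26) were above all KO3 values (3.03 to 3.22), as for 4.04% of all probe sets in this direction. The log2 difference, KO1 minus KO3, was 0.57 (95% confidence interval 0.08 to 1.05, unadjusted p = 0.0253, adjusted p = 0.997 by limma), and the exact permutation p was 0.1, the smallest possible. In shoots it was 0.46 (95% confidence interval -0.0073 to 0.93, adjusted p = 0.648 by limma), and the lines overlapped at 1.41. KO1 replicate 3 moved the root difference most, to 0.30 when it was left out, and KO1 replicate 2 the shoot difference, to 0.22. MYB305 differed by -0.02 in shoots and 0.04 in roots (adjusted p = 0.983 and 0.997 by limma). At the adjusted threshold, KO1 against KO3 called 0% of all probe sets in either organ, and at an unadjusted p under 0.05 it called 6.69% in shoots and 3.29% in roots.

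The effect of a deletion in shoots was not shown to differ from that in roots for either MYB gene. For MYB10 the shoot effect minus the root effect was 0.30 in KO1 (95% confidence interval -0.44 to 1.03, adjusted p = 0.779 by limma) and 0.41 in KO3 (95% confidence interval -0.33 to 1.14, adjusted p = 0.960). Leaving out 1 array at a time gave 0.06 (without KO1 shoots replicate 2) to 0.57 (without KO1 roots replicate 3) in KO1, and 0.23 (without WT roots replicate 1) to 0.58 (without WT roots replicate 3) in KO3. For MYB305 it was -0.04 in KO1 and 0.01 in KO3 (adjusted p = 0.975 and 1 by limma). The adjusted threshold called 0.37% of all probe sets in KO1 and 0.0994% in KO3. At an unadjusted p under 0.05 the shares were 11% and 6.28%, with 0 of the 2 MYB genes in either line.

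Because MYB10 belongs to the iron deficiency response, genes of iron uptake and its control were listed. Of 33, 7 were named on the array, 3 of them through the OX7.5 lists. Those 3 were named because they had changed in OX7.5, so the 7 are not a random set. In roots 0 of 7 passed limma's adjusted threshold in either line, and 2 of 7 (BHLH100 and NRAMP1) had an unadjusted p under 0.05 in each, against 8.38% of all probe sets in KO1 roots and 11.2% in KO3 roots. The bHLH factor BHLH100 (AT2G41240), a regulator induced when iron is scarce, had the lowest root fold changes among them. Its log2 signal in roots was 2.67 and 2.41 in WT, 1.52, 1.69 and 2.46 in KO1, and 1.48, 1.36 and 1.88 in KO3. All but the WT value of 2.67 lay below the root array medians (2.61 to 2.67). No detection call shows whether such signals stand above background. KO3 lay below WT without overlap, as for 11.8% of all probe sets in this direction. KO1 overlapped with WT through replicate 3, the array in which MYB10 was also highest. The log2 fold changes of BHLH100 were -0.65 in KO1 roots (unadjusted p = 0.0310, adjusted p = 0.531 by limma) and -0.97 in KO3 roots (unadjusted p = 0.0037, adjusted p = 0.208 by limma). NRAMP1, a metal transporter of the root, followed with -0.65 in KO1 and -0.45 in KO3 (adjusted p = 0.296 and 0.381 by limma).

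Over the 8 root arrays, MYB10 and BHLH100 had a Pearson r of 0.83 (exact permutation p = 0.0126) and a Spearman rho of 0.85 (exact permutation p = 0.0114). Among the 7 relations computed, 1 for each iron gene, the adjusted p-values were 0.0885 and 0.0799, so the relation did not pass after correction. It had been noticed in the values before it was computed. The permutations mixed the arrays of the lines, so these p-values also take in differences between lines. No p was computed for the relation within lines. Without the 2 arrays farthest from the median of MYB10 (KO1 roots replicate 3 and WT roots replicate 1) r was 0.62, and after subtraction of each line's mean it was 0.83. The other 6 iron genes had r between -0.36 and 0.37.

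**Figure D4:**
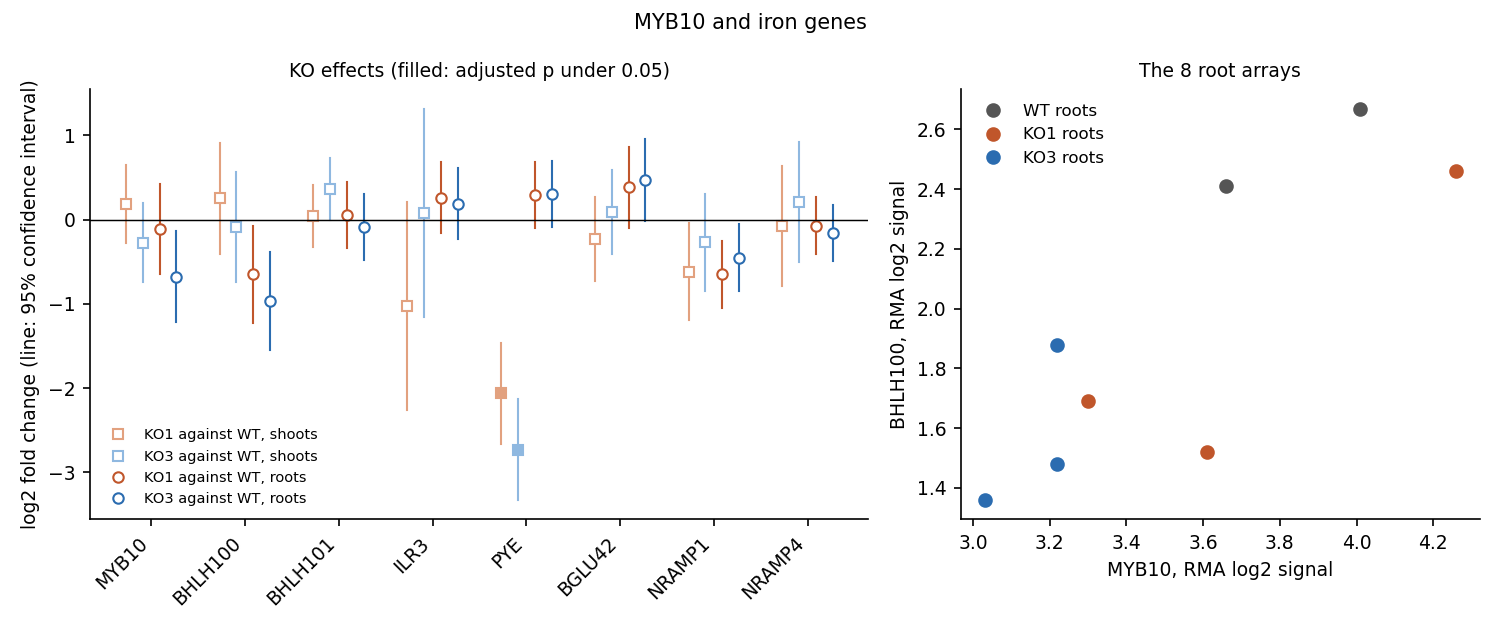
Left, log2 fold changes of MYB10 and the 7 named iron genes in KO1 and KO3 against WT in each organ, with 95% confidence intervals and filled symbols for an adjusted p under 0.05; PYE in shoots (-2.06 and -2.73) holds the filled ones. Right, log2 signals of MYB10 and BHLH100 in the 8 root arrays, coloured by line, with r = 0.83.

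In shoots, where MYB10 was near or below the array medians, 1 of the 7 iron genes passed the threshold in each line. This was PYE (POPEYE, AT3G47640), a bHLH factor that represses genes of iron homeostasis. Its log2 signal in shoots was 5.30, 4.85 and 5.51 in WT, 3.28, 3.60 and 2.59 in KO1, and 2.42, 2.45 and 2.60 in KO3. All 3 KO3 values were below the WT values, as for 6.32% of all probe sets in this direction. PYE fell by 2.06 in KO1 (adjusted p = 0.0183 by limma) and by 2.73 in KO3 (adjusted p = 0.00704 by limma) on the log2 scale. The KO1 call was lost with the replicate number as a block (adjusted p = 0.0823), and the calls of both lines were lost when KO3 shoots replicate 2 or 3 or WT shoots replicate 1 or 3 was left out, where the adjusted p was between 0.0515 and 0.118. The 10 alternatives were the replicate block and each array left out. They gave log2 fold changes of -2.29 to -1.78 in KO1 and -2.92 to -2.59 in KO3. Other normalisations were not fitted for PYE. On the scale quantile normalised over all arrays, its shoot means were 5.38 in WT, 3.97 in KO1 and 3.01 in KO3. As deposited they were 5.22, 3.16 and 2.49. In roots PYE was 0.29 and 0.30 above WT (adjusted p = 0.697 and 0.563 by limma). Its WT root signals were 2.55 and 2.77, around the root array medians (2.61 to 2.67). The iron genes as a list had median log2 fold changes of -0.23 and 0.08 in KO1 and KO3 shoots and 0.06 and -0.09 in roots.

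Of 14 listed genes of the complexes in which MYB and bHLH factors meet, 6 were named on the array: the bHLH genes ATMYC1, GL3, MYC2, MYC3 and MYC4, and TRY (AT5G53200), a single-repeat MYB protein that binds bHLH factors such as GL3 and represses trichome formation. Of the 6, 2 were named through the OX7.5 lists, because they had changed there. In KO1 shoots 1 of the 6 passed limma's adjusted threshold as lower, MYC4 (AT4G17880), which works with MYB factors of glucosinolate synthesis. In the other comparisons of a KO line with WT, 0 of the 6 passed it. At an unadjusted p under 0.05, MYC4 and TRY (2 of 6) were lower in shoots of each line, where all probe sets had shares of 9.95% and 5.03%. In roots 1 of 6 passed in KO1 and 2 of 6 in KO3, where the shares were 8.38% and 11.2%. With 1.5-fold or more also required, 0 of 6 passed in roots of either line. Root means of ATMYC1, GL3 and MYC2 were above WT in both lines, and those of MYC3, MYC4 and TRY were below. The log2 signal of MYC4 in shoots was 6.0, 5.44 and 5.86 in WT, 3.10, 3.91 and 3.85 in KO1, and 3.66, 4.11 and 4.19 in KO3. The log2 fold change was -2.15 in KO1 (adjusted p = 0.0127 by limma) and -1.78 in KO3 (adjusted p = 0.0520 by limma), and in roots it was -0.25 and -0.06. The KO1 call was lost when WT shoots replicate 1 or replicate 3 was left out (adjusted p = 0.0894 and 0.0888). Without KO1 shoots replicate 1 the value was -1.89 (adjusted p = 0.00327). On the scale quantile normalised over all arrays, MYC4 shoot means were 5.79 in WT, 4.38 in KO1 and 4.37 in KO3. As deposited they were 5.77, 3.62 and 3.99. The log2 signal of TRY in shoots was 3.53, 3.33 and 3.04 in WT, 1.64, 2.60 and 2.65 in KO1, and 2.70, 2.44 and 2.06 in KO3. The lowest value came from KO1 shoots replicate 1. All 3 KO3 values of TRY were below its WT values, as for 6.32% of all probe sets in this direction. Its log2 fold changes in shoots were -1.0 in KO1 and -0.90 in KO3 (adjusted p = 0.282 and 0.723 by limma), and in roots -0.03 and -0.09.

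Of the enzymes of pathways that MYB factors control, glucosinolate synthesis had 8 of 32 listed genes named, 5 of them through the OX7.5 lists. In KO3 roots 5 of the 8 were higher at 1.5-fold or more and a limma p under 0.05 before adjustment, and 0 were lower. After adjustment 1 of the 8 passed as higher, GSTF11 (AT3G03190), a glutathione transferase. Its log2 signal in roots was 2.29 and 2.4 in WT, 3.35, 3.15 and 3.10 in KO1, and 3.29, 3.76 and 3.42 in KO3. Both WT values lay below the root array medians (2.61 to 2.67), where no detection call shows whether a signal stands above background. The log2 fold change was 1.15 in KO3 (adjusted p = 0.0288 by limma) and 0.86 in KO1 (adjusted p = 0.121 by limma). On the scale quantile normalised over all arrays, the root means were 1.98 in WT, 2.62 in KO1 and 2.85 in KO3. The KO3 call was lost in 7 of 9 alternatives, among them the replicate block (adjusted p = 0.0601) and the fit without WT roots replicate 1 (adjusted p = 0.331), while the log2 fold change stayed between 1.01 and 1.25 in all 9. The median log2 fold change of the 8 genes was 0.65 in KO1 roots and 0.67 in KO3 roots, against 0.00 and 0.51 in shoots, and 6 of the 8 had an unadjusted p under 0.05 in roots of each line, against 8.38% of all probe sets in KO1 and 11.2% in KO3. These are mostly genes that were named because they changed in OX7.5. Of the flavonoid enzymes 5 of 12 were named, and of the secondary wall and suberin genes 1 of 18 and 1 of 12. Of these 7, 0 passed the adjusted threshold in any comparison of a KO line with WT. FAR1, a fatty acid reductase of suberin synthesis named through the OX7.5 lists, alone had an unadjusted p under 0.05 by limma. This was in KO3 shoots, where 5.03% of all probe sets did.

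Besides TRY, 4 further named genes of MYB or MYB-related proteins whose symbols lie outside the naming rule were examined, which is not a full count of such genes. They are PAP1 (AT1G56650), which activates anthocyanin synthesis, MYBC1 (AT2G40970), AT5G47390 and AT5G52660, and 0 of the 4 passed limma's adjusted threshold in any comparison of a KO line with WT. AT5G52660 alone had an unadjusted p under 0.05, in KO1 shoots and in KO3 roots, where 9.95% and 11.2% of all probe sets did. Of the 4, 2 had been named through the OX7.5 lists. The widest difference was that of AT5G52660 in KO1 shoots, with log2 signals of 4.75, 4.34 and 4.46 in WT against 2.36, 3.26 and 3.32 in KO1. Its log2 fold change was -1.54 (adjusted p = 0.0961 by limma), and the lowest value came from KO1 shoots replicate 1. The log2 signal of PAP1 in shoots was 1.51, 2.53 and 1.72 in WT, 1.80, 1.94 and 1.73 in KO1, and 2.15, 2.27 and 1.53 in KO3, and the lines overlapped.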

How the data were processed

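The authors normalised the array signals by RMA in Transcriptome Analysis Console with TAIR10 and deposited log2 values with 2 decimals; versions are not given in the sources used here, and the number of arrays limits the precision. The platform's table named 17504 probe sets and the OX7.5 lists 603 more; all 18107 were tested, and RefSeq was used for names only. Each organ was fitted in R 4.3.3 with limma 3.58.1 (functions lmFit and eBayes; the spread was shared by the 3 lines), with p-values adjusted over all named probe sets (Benjamini-Hochberg, threshold 0.05). Differences between organs used 1 fit of 17 arrays, the direct organ comparison after quantile normalisation. Exact permutation tests were two-sided, in Python 3.11.15 with NumPy 2.4.6 and pandas 2.3.3; SciPy 1.17.1 and matplotlib 3.10.9 were also used. The fitting script was tested on simulated data.

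The members and lists were chosen with earlier results of these data known, and the iron list was written after the members were found. The naming rule for genes covers MYB members by call, by rank of change and level, and by name; with 2 members it takes in both, and other genes named here were chosen after their values were seen. Names of MYB72 and NAS4 were not matched to a probe set, and they were not analysed here. Alternatives were quantile normalisation within the organ, array medians subtracted, dim probe sets (below the 30th percentile) left out, all probe sets, a replicate block, fits of 2 groups alone or of all 17 arrays, weights for arrays, no moderation of the variance, robust eBayes with a trend, and each array left out in turn; for the organs also the deposited values, WT arrays only and a random block. Same-numbered arrays of different lines had residual correlations of -0.14 to 0.28 in shoots and -0.05 to 0.21 in roots, so the numbers were not taken as pairs. All 3 same-numbered pairs of KO1 and KO3 in shoots nevertheless exceeded 0.1 (0.14 to 0.28). So did both same-numbered pairs of KO1 and WT in roots (0.214 and 0.137). In roots 3 of 7 same-numbered pairs exceeded 0.1, against 0 of 14 pairs with different numbers. The 2 WT root arrays have equal and opposite residuals, so part of that root contrast is fixed by construction. In shoots 4 of 9 same-numbered pairs exceeded 0.1, and 4 of 18 pairs with different numbers. Biological replicates are as labelled, and whether they were grown apart is not stated.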

Additional observations from a re-analysis of the deposited data

Results flagged for a closer look

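In a direct test of the shoot effect minus the root effect, PYE differed between the organs in both lines. The difference was -2.35 on the log2 scale in KO1 (adjusted p = 0.00706 by limma) and -3.03 in KO3 (adjusted p = 0.00429 by limma). In WT the signal of PYE was 4.85 to 5.51 in shoots but 2.55 and 2.77 in roots, around the root array medians. No detection call shows whether such root signals stand above background, so a fall in roots as large as that in shoots might not be seen. The KO1 call was lost without WT roots replicate 1 (-2.24, adjusted p = 0.0650), and the KO3 call held in all 18 alternatives run. MYC4 differed by -1.9 in KO1 (adjusted p = 0.0483 by limma), a call lost in 10 of 18 alternatives, and without WT roots replicate 1 the value was -1.58 (adjusted p = 0.360).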

How the results depend on the processing

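Neither MYB gene passed the adjusted threshold in a comparison between lines, or of effects between organs, under any alternative run, and MYB10 was called lower in shoots than in roots under all 23. The size of that organ difference depended on the processing, at -1.99 to -1.04 on the log2 scale over the 23. Where 1 array was left out it was -1.28 to -1.04. MYB10 in KO3 roots kept its sign in all 18, at -0.85 to -0.50 (adjusted p = 0.171 to 0.912 by limma), and failed the study's thresholds in 4: without WT roots replicate 1, without KO3 roots replicate 2 (unadjusted p = 0.0525), in the unmoderated model (0.0781) and with the replicate block (-0.54). With that block MYB10 in KO1 roots was 0.026, and the KO1 effect of MYB305 differed between the organs by 0.039; at the adjusted threshold the block changed no call of a MYB gene, also with KO1 and KO3 shoots fitted alone. Leaving out each array moved MYB10 in KO1 against KO3 to 0.22 to 0.65 in shoots and 0.30 to 0.78 in roots.

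MYB305 changed sign with array medians subtracted (0.03 for KO1 minus KO3 in shoots), with quantile normalisation within the organ (-0.036 for the KO3 effect, shoots minus roots) and with deposited values (-0.018 for shoots minus roots). With array medians subtracted, 2 MYB genes in place of 1 were called between organs, MYB305 at 0.81. Leaving out dim probe sets removed MYB305, so that the medians became -0.27 in KO3 shoots and -0.68 in KO3 roots. The median of all probe sets for shoots minus roots was 0.01 as reported, -0.32 with deposited values and 0.51 with array medians subtracted.

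Leaving out each array in turn gave values on both sides of 0 for MYB10 in KO1 shoots (-0.052 to 0.38) and KO1 roots (-0.38 to 0.10). For MYB305 it did so in KO1 shoots (-0.023 to 0.23), KO1 roots (-0.027 to 0.33), KO3 roots (-0.063 to 0.30), KO1 against KO3 in shoots (-0.15 to 0.075) and roots (-0.11 to 0.13), the KO1 effect (-0.22 to 0.14) and the KO3 effect (-0.17 to 0.19) between organs, and shoots against roots (-0.036 to 0.062). The median of the MYB genes ranged from -0.16 to 0.20 in KO1 roots, from -0.46 to -0.10 in KO3 roots and from -0.14 to 0.02 in KO3 shoots. The cause of these changes was not tested beyond the arrays and probe sets removed.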
